A study of Mus musculus with 6 samples.

Results

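Replication-dependent histone genes were examined in haematopoietic stem cells of mouse fetal liver, sorted by the 5 histone classes. They were all genes of the deposited table whose symbol begins with Hist1h, Hist2h, Hist3h or Hist4h, which gave 67 of 23951 genes. Of these, 6 encode linker histone H1, 18 H2A, 18 H2B, 12 H3 and 13 H4, and 1 of the 67, Hist3h2bb-ps, is annotated as a pseudogene. The prefix names the gene cluster, with 53 Hist1 genes on chromosome 13, 10 Hist2 genes on chromosome 3, 3 Hist3 genes on chromosome 11 and 1 Hist4 gene on chromosome 6.

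Cells of C57BL/6 mice with a knockout of RISP (KO, 3 libraries) were compared with RISP wild type cells (WT, 3 libraries). RISP is the Rieske iron-sulfur protein of respiratory complex III, encoded by Uqcrfs1. The labels used here give neither the driver of the knockout nor the age of the embryos, and do not state whether replicate libraries stem from different embryos. P-values therefore only set the difference between groups against the variation between replicate libraries, part of which may be technical. A random-primed low-input kit, which also captures RNA without a poly(A) tail, was used on a few nanograms of total RNA.

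Replication-dependent histone mRNAs are made in S phase, when new DNA has to be packed into nucleosomes. Their genes lie in clusters, mostly lack introns and are read by factors gathered at histone locus bodies, among them NPAT. The mRNAs end not in a poly(A) tail but in a conserved stem-loop, which is bound by SLBP (stem-loop binding protein) and read by the U7 snRNP during 3′ end formation. H2A, H2B, H3 and H4 form the nucleosome core, while H1 binds the linker DNA between nucleosomes. Replication-independent variants, such as H3.3, are made outside S phase from separate genes with polyadenylated mRNAs.

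The stem-loop is shown because it is the common 3′ end signal of these mRNAs. A perfect 6-base stem around a 4-base loop was found in the annotated transcripts (GENCODE M21 on GRCm38) of 44 of the 67 genes. The stem had to begin with GG and the loop with TT. A gene without a match only lacks these letters in its annotated transcripts, which may end before the stem-loop. In the forms that follow, written 5′ to 3′, capitals mark the stem and lower case the loop.
H1, H2A, H2B and H3, commonest form: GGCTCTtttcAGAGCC
H1, H2B and H3, second form: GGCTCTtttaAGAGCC
H2A, Hist2h2ac: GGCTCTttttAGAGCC
H4, commonest form: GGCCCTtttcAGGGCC
H4, second form: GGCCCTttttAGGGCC
H4, GGTCCT form: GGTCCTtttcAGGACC
The first form stood in 3 H1, 10 H2A, 8 H2B and 5 H3 genes, for instance at chr13:23739512-23739527 on the plus strand of GRCm38 in Hist1h1c. All 11 H4 stem-loops found had a stem that differed from the GGCTCT stem of the other classes. They divided into 7, 2 and 2 genes over the 3 forms.

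Promoters of 4 genes are shown because Hist1h1b, Hist3h2a and Hist1h2ak are the 3 called histone genes with the smallest p, and Hist1h4d, the H4 gene with the highest CPM, was not called. Each runs from 250 bases before to 50 bases after the annotated start (RefSeq, GRCm38.p6). Capitals mark matches, on either strand, to the TATA box (TATAAA), the CCAAT box (CCAAT), the octamer (ATTTGCAT) and the AC box (AAACACA).
Hist1h1b, minus strand, chr13:21780576-21780875: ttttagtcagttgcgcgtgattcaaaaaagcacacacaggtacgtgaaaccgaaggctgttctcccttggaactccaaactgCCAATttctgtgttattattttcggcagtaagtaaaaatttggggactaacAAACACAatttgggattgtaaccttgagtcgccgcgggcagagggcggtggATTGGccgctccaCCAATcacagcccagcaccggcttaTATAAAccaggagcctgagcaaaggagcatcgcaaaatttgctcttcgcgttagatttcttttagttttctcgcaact
Hist3h2a, plus strand, chr11:58954435-58954734: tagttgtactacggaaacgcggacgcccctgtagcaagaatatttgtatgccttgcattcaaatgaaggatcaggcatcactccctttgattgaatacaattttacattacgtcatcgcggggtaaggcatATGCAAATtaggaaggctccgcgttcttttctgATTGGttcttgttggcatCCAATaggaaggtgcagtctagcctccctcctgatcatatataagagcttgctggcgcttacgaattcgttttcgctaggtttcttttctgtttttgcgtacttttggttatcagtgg
Hist1h2ak, minus strand, chr13:21753863-21754162: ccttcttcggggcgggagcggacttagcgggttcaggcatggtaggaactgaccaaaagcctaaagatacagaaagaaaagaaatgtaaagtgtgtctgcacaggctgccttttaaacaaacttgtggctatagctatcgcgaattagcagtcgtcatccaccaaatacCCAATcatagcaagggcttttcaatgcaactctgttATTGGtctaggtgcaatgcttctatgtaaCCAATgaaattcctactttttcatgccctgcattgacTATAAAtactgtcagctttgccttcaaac
Hist1h4d, plus strand, chr13:23581318-23581617: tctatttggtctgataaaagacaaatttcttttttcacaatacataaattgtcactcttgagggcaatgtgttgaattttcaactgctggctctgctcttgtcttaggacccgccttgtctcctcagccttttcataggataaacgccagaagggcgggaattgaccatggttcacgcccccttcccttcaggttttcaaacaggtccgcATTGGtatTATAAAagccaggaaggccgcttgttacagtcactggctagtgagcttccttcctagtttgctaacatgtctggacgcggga
Of the 67 genes, 66 matched 1 RefSeq gene and 60 had a promoter in the table. The CCAAT box stood in 85.0% of these 60 promoters, against 37.9% of all 27025 promoters of the same length. The TATA box stood in 58.3% of the histone promoters and 14.2% of all promoters, and the octamer in 21.7% and 1.75%. The AC box was found in 15.0% of the histone promoters, against 7.14% of all promoters.
The classes differed in these letters. The CCAAT box was present in every H1, H2A, H2B and H3 promoter read (6, 17, 15 and 10 genes), and in 3 of 12 H4 promoters. The octamer was present in 7 of 17 H2A and 6 of 15 H2B promoters, and in no H1, H3 or H4 promoter. The AC box was present in 5 of 6 H1, 2 of 17 H2A and 2 of 15 H2B promoters, and in no H3 or H4 promoter. No matches of different motifs overlapped, and a match is a description of the letters, not of a bound site.

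Uqcrfs1 had 60, 51 and 39 counts in KO libraries, against 771, 1320 and 791 in WT libraries, so all 6 libraries matched their labels (log2 fold change -4.59, SE 0.29, edgeR adjusted p = 4.11e-09). Total counts were 12020128 to 14590844 in KO and 10191354 to 13189329 in WT. All 9 stem cell markers listed were among the genes tested, and their summed level was 1722 to 1914 CPM in KO and 2125 to 2589.9 CPM in WT. Of the 9, 4 were lower in KO, where 4.99% of all genes tested were lower. Ribosomal precursor RNA (Rn45s) took 4.96 to 9.92% of counts in KO and 10.5 to 11.7% in WT.

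Histone genes were called lower in KO in all 5 classes, and none was called higher. Of the 67 genes, 9 had 0 counts in every library, 4 were too low to test and 54 were tested. Among the 54, 20 fell and 0 rose at an edgeR Benjamini-Hochberg adjusted p under 0.05 over the 12204 genes tested. Over all genes tested, 11.4% were called, 4.99% lower and 6.41% higher in KO. The median log2 fold change was -0.66 over the 54 histone genes and -0.02 over all genes tested. A negative log2 fold change was found for 53 of the 54, where 52% of all genes tested had one. At an unadjusted p under 0.05, 31 histone genes were lower and 0 higher. Every KO library lay below every WT library in 29 of the 54, against 14.5% of all genes, and every KO library lay above in 0, against 15.7% of all genes. In these bulk libraries, fewer cells in S phase and less histone mRNA per cell cannot be told apart. DESeq2 called 23 histone genes lower. The count was 11 without KO replicate 2, and 11 with limma on the deposited RPKM values. The share of all genes called lower was 2.1% without KO replicate 2 and 1.86% with limma on log2(RPKM + 1). The histone median log2 fold change was -0.60 and -0.54 in these 2 settings. Of the 20 calls, 7 held whichever library was left out: Hist1h1b, Hist2h2ac, Hist1h2ak, Hist3h2a, Hist1h2bh, Hist1h3f and Hist2h3b.

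**Figure D1:**
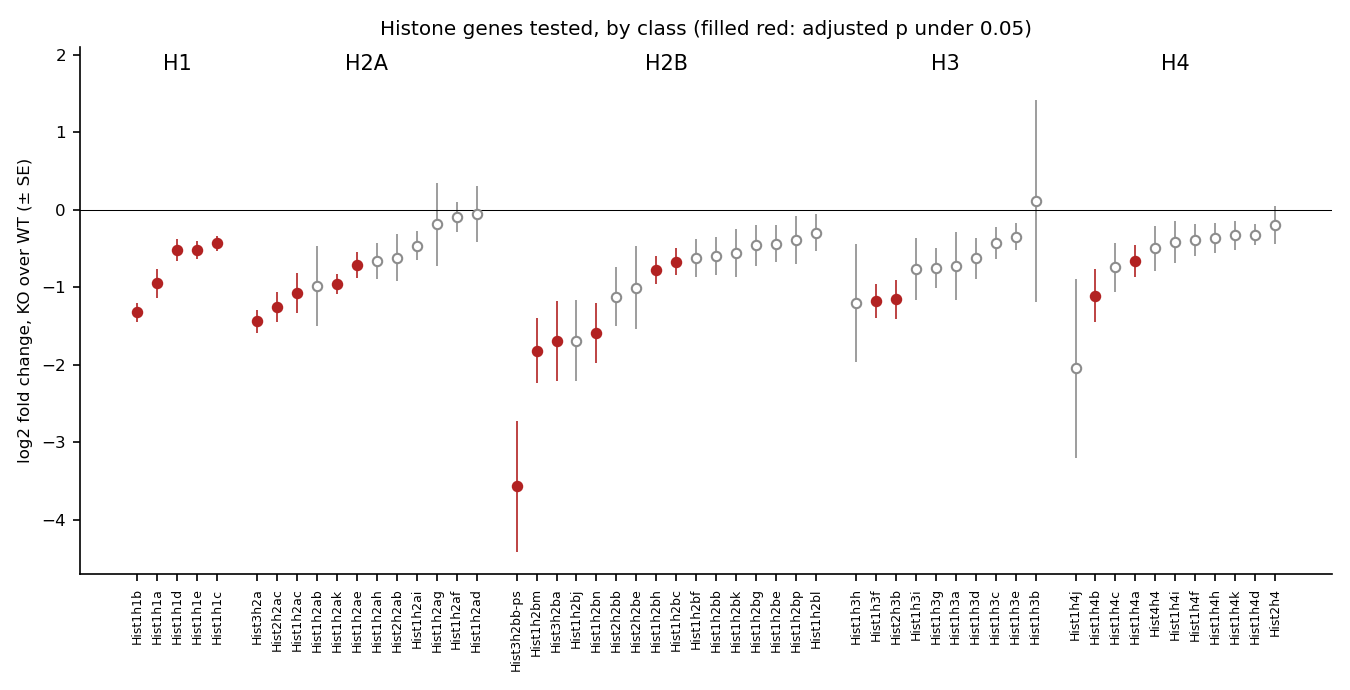
Log2 fold change (KO over WT, ± SE) of the 54 histone genes tested, ordered by class, with filled red points at an edgeR adjusted p under 0.05. All points but Hist1h3b lie below 0, and the 20 filled points are spread over all 5 classes.

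Summed over all 67 genes, the histone level was 5599.7, 4614 and 5013 CPM in KO libraries, against 6962, 10364 and 7679 CPM in WT libraries. The KO mean was 60.9% of the WT mean, and the groups did not overlap. A sum does not depend on how the counted reads were divided among near-identical genes of 1 class, and the sums are described without a test. H1 summed to 2766, 2305 and 2683 CPM in KO libraries, against 3468, 4769.5 and 3785 CPM in WT libraries, a KO mean of 64.5% of WT. H2A summed to 1181, 976 and 1063 CPM in KO libraries, against 1656, 2762 and 1824 CPM in WT libraries, or 51.6% of WT, the lowest ratio of the 5 classes. All KO libraries lay below all WT libraries in both classes. H2B summed to 672, 543 and 511 CPM in KO libraries, against 811, 1426 and 959.8 CPM in WT libraries, or 54.0% of WT. H3 summed to 302, 229 and 235 CPM in KO libraries, against 361, 486 and 367 CPM in WT libraries, or 63.0% of WT. Neither class had an overlap between groups. H4 summed to 679, 562 and 521 CPM in KO libraries, against 667, 919 and 744 CPM in WT libraries, or 75.6% of WT, and here KO replicate 1 stood above WT replicate 1. WT replicate 2 was the highest library in every class. On the deposited RPKM scale the H3 sums also overlapped, at 533, 492 and 595 RPKM in KO libraries, against 666, 790.4 and 579 RPKM in WT libraries. There the KO mean was 79.6% of WT for H3 and 79.4% for H4.

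**Figure D2:**
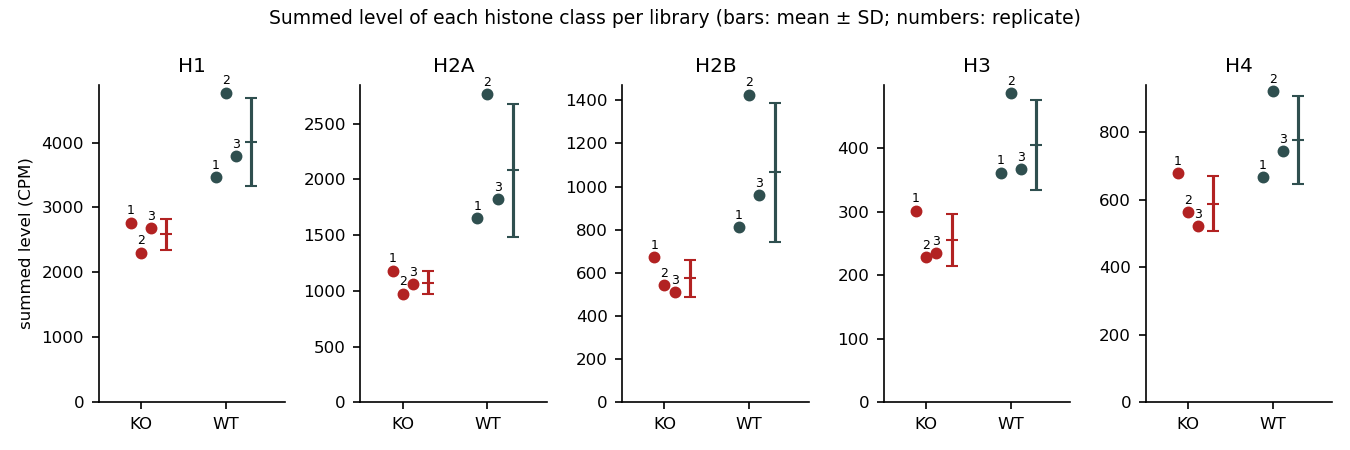
Summed TMM-scaled level (CPM) of each histone class in the 3 KO and 3 WT libraries, with points numbered by replicate and bars at the mean ± SD. On this scale KO lies below WT without overlap in H1, H2A, H2B and H3 and overlaps WT in H4. On the deposited RPKM scale H3 overlaps too.

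The make-up of the histone counts was read as each class's share of all histone counts. Counts grow with transcript length as well as with transcript number, so these are not shares of mRNA molecules. H1 took 51.0 ± 2.23% in KO and 48.4 ± 2.05% in WT (SD, n = 3 each), with overlapping groups. The share of H2A was 21.1 ± 0.0569% in KO and 24.7 ± 1.67% in WT, lower in each of the 3 KO libraries than in any WT library. The share of H4 was 11.6 ± 1.01% in KO and 9.38 ± 0.440% in WT, with KO libraries at 12.1, 12.2 and 10.4% and WT libraries at 9.57, 8.87 and 9.68%, all KO above all WT. H2B took 11.3 ± 0.985% in KO and 12.6 ± 1.06% in WT and H3 5.01 ± 0.353% in KO and 4.89 ± 0.264% in WT. Shares of a whole are tied to one another, so a lower share of 1 class raises the others. On the deposited RPKM scale, H1 summed to a mean of 3569 of 11262 RPKM in KO and 5608 of 18048 RPKM in WT. There H4 summed to 2680 RPKM in KO and 3375 RPKM in WT. The gene lengths behind the RPKM values are unknown, so these sums do not give shares of mRNA molecules either.

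Linker histone H1 was the class with every tested gene called: 5 of 5 fell, with log2 fold changes of -1.33 to -0.44. The H1 median of -0.52 was smaller in size than the medians of H2A (-0.69), H2B (-0.72) and H3 (-0.74). Hist1h1b, which encodes H1.5, had 256, 191 and 211 CPM in KO libraries, against 477, 631 and 539 CPM in WT libraries. It averaged 219 ± 33.4 CPM in KO and 549 ± 77.5 CPM in WT (SD, n = 3 each; log2 fold change -1.33, SE 0.13, edgeR adjusted p = 7.03e-07). Each KO value lay below the lowest WT value. Hist1h1a, encoding H1.1, had 289, 220.2 and 250.2 CPM in KO libraries, against 437, 649.9 and 383 CPM in WT libraries, again without overlap (log2 fold change -0.95, SE 0.18, edgeR adjusted p = 0.00732). The remaining 3 genes had higher levels and fold changes of smaller size. Hist1h1c, encoding H1.2, had 801, 703 and 768 CPM in KO libraries, against 935, 1131 and 1007 CPM in WT libraries (log2 fold change -0.44, SE 0.10, edgeR adjusted p = 0.00613). Hist1h1e, encoding H1.4 and the histone gene with the highest CPM, had 909.6, 799 and 908 CPM in KO libraries, against 1053, 1515 and 1179.6 CPM in WT libraries (log2 fold change -0.52, SE 0.12, edgeR adjusted p = 0.00628). Hist1h1d, encoding H1.3, had 511, 392 and 545 CPM in KO libraries, against 564, 838 and 676 CPM in WT libraries (log2 fold change -0.52, SE 0.14, edgeR adjusted p = 0.0282). The 3 genes showed no overlap between groups, and WT replicate 2 was highest in each.
The sixth gene, the testis variant Hist1h1t, had 0, 4 and 12 counts in KO and 0, 45 and 8 in WT and was not tested. Hist1h1a lost its call without KO replicate 3 (adjusted p = 0.0613), and Hist1h1c and Hist1h1e lost theirs without KO replicate 2 (adjusted p = 0.0576 and 0.0533). Hist1h1d lost its call without KO replicate 1, KO replicate 2 or WT replicate 2, with an adjusted p of up to 0.126, and also once length and GC content of the transcripts entered as offsets (adjusted p = 0.332). Calls in the class numbered 2 without KO replicate 2, and 2 with limma on the deposited RPKM values.

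**Figure D3:**
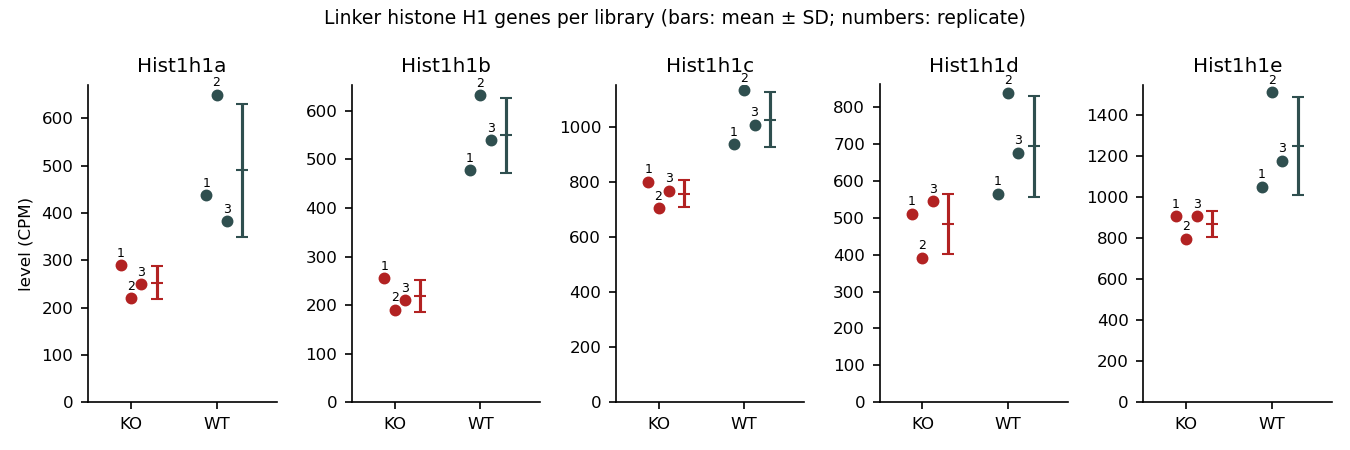
Level (TMM-scaled CPM) of the 5 tested H1 genes in the 3 KO and 3 WT libraries, with points numbered by replicate and bars at the mean ± SD. In each gene all KO libraries lie below all WT libraries, and the KO and WT points are farthest apart, relative to their level, for Hist1h1b.

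Within the H1 counts, Hist1h1b made up 8.46 ± 0.719% in KO and 13.8 ± 0.506% in WT (SD, n = 3 each), and the KO libraries (7.85 to 9.25%) lay below the WT libraries (13.2 to 14.3%). Hist1h1c made up 29.4 ± 1.01% in KO and 25.8 ± 1.78% in WT, and Hist1h1e 33.8 ± 0.884% in KO and 31.1 ± 0.698% in WT, and for both genes the groups did not overlap. The shares of Hist1h1a and Hist1h1d were 9.78 ± 0.600% in KO and 12.1 ± 1.81% in WT and 18.6 ± 1.66% in KO and 17.2 ± 0.838% in WT, and both overlapped between groups. Shared sequence, which can blur counts, was read as the share of 50-base windows over all annotated transcripts of a gene. Long annotated transcripts lower this share: Hist1h1d had 7376 windows, against 692 for Hist1h1a and 694 for Hist1h1b. No 50-base window of the Hist1h1a and Hist1h1b transcripts recurs in another annotated transcript, and 8.54%, 2.25% and 32.0% of windows do for Hist1h1c, Hist1h1d and Hist1h1e.

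Among core histones, H2A had 18 genes, of which 12 were tested and 5 fell, and all 12 log2 fold changes were negative (median -0.69). Hist3h2a had 114, 102 and 97.9 CPM in KO libraries, against 244, 367 and 243 CPM in WT libraries (log2 fold change -1.44, SE 0.15, edgeR adjusted p = 3.27e-06). Hist2h2ac had 171, 140.5 and 138 CPM in KO libraries, against 264, 483 and 329 CPM in WT libraries (log2 fold change -1.26, SE 0.20, edgeR adjusted p = 0.00232). Hist1h2ak, the H2A gene with the highest CPM, had 367, 308 and 295 CPM in KO libraries, against 550.4, 777 and 561 CPM in WT libraries (log2 fold change -0.96, SE 0.13, edgeR adjusted p = 9.01e-05). In these 3 genes every KO library lay below every WT library. Hist1h2ae had 135, 113 and 158 CPM in KO libraries, against 172, 287 and 205 CPM in WT libraries (log2 fold change -0.71, SE 0.17, edgeR adjusted p = 0.0125). Hist1h2ac had 65.4, 48.5 and 79.9 CPM in KO libraries, against 101, 195 and 112 CPM in WT libraries (log2 fold change -1.07, SE 0.26, edgeR adjusted p = 0.0199). The call of Hist1h2ae was lost without KO replicate 1, KO replicate 2 or WT replicate 2 (adjusted p up to 0.0796). That of Hist1h2ac was lost without KO replicate 1 or 2 (up to 0.104) and with length and GC offsets (adjusted p = 0.0642). Without KO replicate 1 or KO replicate 2, and with limma on the deposited RPKM values, 3 H2A genes were lower. The other 7 tested genes had log2 fold changes of -0.98 to -0.05. Hist1h2ab was the lowest of them at -0.98 (adjusted p = 0.343).

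H2B had 18 genes, 16 of them tested and 6 lower in KO, and all 16 log2 fold changes were negative (median -0.72). Hist1h2bh had 41.2, 42.3 and 44.0 CPM in KO libraries, against 73.5, 76.4 and 68.6 CPM in WT libraries, with little spread within either group (log2 fold change -0.78, SE 0.18, edgeR adjusted p = 0.00661). Hist1h2bc had 67.4, 71.0 and 59.8 CPM in KO libraries, against 94.1, 135 and 86.8 CPM in WT libraries (log2 fold change -0.67, SE 0.18, edgeR adjusted p = 0.0168). Hist1h2bn had 7.43, 8.32 and 7.10 CPM in KO libraries, against 18.6, 34.4 and 15.8 CPM in WT libraries (log2 fold change -1.59, SE 0.38, edgeR adjusted p = 0.00948). Hist1h2bm had 11.8, 15.4 and 12.5 CPM in KO libraries, against 31.2, 85.8 and 23.3 CPM in WT libraries (log2 fold change -1.82, SE 0.42, edgeR adjusted p = 0.0146). WT replicate 2 was the highest library for these 4 genes, and for Hist1h2bm it stood well above the rest. Without it, the log2 fold change of Hist1h2bm was -1.04. The low-level genes of the Hist3 cluster were Hist3h2ba, with 5.26, 2.06 and 5.28 CPM in KO libraries, against 12.4, 16.9 and 11.4 CPM in WT libraries (log2 fold change -1.69, SE 0.51, edgeR adjusted p = 0.0363), and the pseudogene Hist3h2bb-ps, with 12, 10 and 5 counts in KO and 68, 69 and 130 in WT. The fold change of Hist3h2bb-ps was the largest of the 54 (log2 fold change -3.57, SE 0.84, edgeR adjusted p = 0.00846).
Of the 6 H2B calls, 5 were lost when a library was left out. The H2B count was 2 without WT replicate 2 and 3 without KO replicate 3. Hist1h2bc was lost without KO replicate 3 or WT replicate 2 (adjusted p up to 0.134), Hist1h2bn without WT replicate 2 (0.113) and Hist3h2bb-ps without WT replicate 3 (0.0533). Hist1h2bm was lost without any 1 of the KO libraries or WT replicate 2 (up to 0.126), and Hist3h2ba without any library but WT replicate 3 (up to 0.146). Hist2h2bb, the H2B gene with the highest CPM, had 258, 169 and 146 CPM in KO libraries, against 279, 586 and 386 CPM in WT libraries, and was not called (log2 fold change -1.13, SE 0.38, edgeR adjusted p = 0.162). Hist1h2bb, the second highest, had 78.0, 67.3 and 62.2 CPM in KO libraries, against 80.7, 159 and 75.6 CPM in WT libraries (log2 fold change -0.60, SE 0.24, edgeR adjusted p = 0.139), and its groups overlapped. Its log2 fold change was -0.18 without WT replicate 2.

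H3 had 12 genes, 10 tested and 2 lower in KO, with 9 of 10 log2 fold changes negative (median -0.74). Hist1h3f had 34.8, 27.2 and 29.1 CPM in KO libraries, against 64.4, 89.1 and 52.4 CPM in WT libraries (log2 fold change -1.18, SE 0.22, edgeR adjusted p = 0.00139). Hist2h3b had 22.6, 20.9 and 20.6 CPM in KO libraries, against 34.0, 62.7 and 46.4 CPM in WT libraries (log2 fold change -1.16, SE 0.25, edgeR adjusted p = 0.00483). Neither gene overlapped between groups. Hist1h3e, the H3 gene with the highest CPM, had 107, 76.6 and 77.8 CPM in KO libraries, against 107, 135 and 89.7 CPM in WT libraries, and the KO and WT libraries overlapped (log2 fold change -0.35, SE 0.18, edgeR adjusted p = 0.228; log2 fold change -0.18 without WT replicate 2). Hist1h3c had 61.4, 45.9 and 36.4 CPM in KO libraries, against 60.3, 63.3 and 70.2 CPM in WT libraries, also overlapping (log2 fold change -0.43, SE 0.20, edgeR adjusted p = 0.191). On the deposited RPKM values neither of the 2 called genes passed with limma (adjusted p = 0.0714 and 0.0694). Hist1h3h had a log2 fold change of -1.21 at a level of 2.81 ± 2.25 CPM in KO and 6.50 ± 1.29 CPM in WT, and did not pass (edgeR adjusted p = 0.350). The single positive fold change was that of Hist1h3b, at 1.22 ± 0.335 CPM in KO and 1.13 ± 0.0279 CPM in WT (log2 fold change 0.12, SE 1.30, edgeR adjusted p = 0.971).

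H4 had 13 genes, 11 tested and 2 lower in KO, with all 11 log2 fold changes negative and a median of -0.42. Hist1h4a had 33.7, 37.4 and 32.0 CPM in KO libraries, against 55.8, 49.2 and 58.2 CPM in WT libraries (log2 fold change -0.66, SE 0.20, edgeR adjusted p = 0.0378). Hist1h4b had 20.0, 7.06 and 15.5 CPM in KO libraries, against 34.3, 26.5 and 31.1 CPM in WT libraries (log2 fold change -1.11, SE 0.34, edgeR adjusted p = 0.0392). Both calls were lost when libraries were left out: Hist1h4a without any library but WT replicate 2 (adjusted p up to 0.125) and Hist1h4b without KO replicate 2, KO replicate 3, WT replicate 1 or WT replicate 3 (up to 0.171). Hist1h4d, whose promoter is printed above, had 282, 252 and 199 CPM in KO libraries, against 271, 364 and 281 CPM in WT libraries (log2 fold change -0.32, SE 0.14, edgeR adjusted p = 0.144). Hist1h4k had 91.6, 66.0 and 73.0 CPM in KO libraries, against 82.6, 126 and 81.1 CPM in WT libraries (log2 fold change -0.33, SE 0.19, edgeR adjusted p = 0.291). The groups overlapped in both genes. Hist1h4j, the H4 gene with the largest fold change, had 0.361, 0.799 and 1.58 CPM in KO libraries, against 1.20, 8.19 and 2.0 CPM in WT libraries and was not called (log2 fold change -2.05, SE 1.16, edgeR adjusted p = 0.291). Without WT replicate 2 the log2 fold change was -0.81 for Hist1h4j, -0.09 for Hist1h4k and -0.18 for Hist1h4d. The number of H4 genes lower was 0 without KO replicate 2, KO replicate 3, WT replicate 1 or WT replicate 3. The difference between classes in fold change was not tested.
By stem-loop form, the commonest GGCTCT form was found in 20 tested genes, 9 of them lower (median log2 fold change -0.63), and the commonest H4 form in 5 tested genes, 0 of them lower (median -0.39; 0 called by edgeR). The GGTCCT form of H4 was found in 2 tested genes, 1 of them lower. For comparison, 20 of 54 tested histone genes, 2 of 11 tested H4 genes and 4.99% of all genes were lower. The H4 forms were found in no other class, so form and class cannot be told apart. A difference by form was not tested.

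The deposited RPKM of Hist1h1e was 1071 ± 137 in KO and 1493 ± 318 in WT (SD, n = 3 each). Its WT value was the highest of all 54 genes on this scale. The gene lengths behind these values are unknown, so genes of different length cannot be ranked safely by RPKM. In WT, Hist1h4d had a mean of 305 CPM and Hist1h1e 1249 CPM, yet their RPKM values were close. Hist1h2ak was at 775 ± 59.3 RPKM in KO and 1453 ± 278 RPKM in WT, Hist1h1c at 1069 ± 97.5 RPKM in KO and 1452 ± 177 RPKM in WT and Hist1h4d at 1161 ± 152 RPKM in KO and 1399 ± 259 RPKM in WT. The WT values of these 4 genes do not differ beyond their spread. Hist2h2bb was at 529 ± 154 RPKM in KO and 1180.4 ± 446 RPKM in WT, Hist2h2ac at 463 ± 38.1 RPKM in KO and 1065 ± 329.7 RPKM in WT and Hist3h2a at 361 ± 19.7 RPKM in KO and 954 ± 249 RPKM in WT. In KO, Hist1h4d stood highest on this scale, close to Hist1h1e and Hist1h1c within the spread, a rank that depends on the gene lengths used.

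By cluster, 15 of 44 tested Hist1 genes fell (median log2 fold change -0.63), 2 of 6 Hist2 genes (median -1.07), 3 of 3 Hist3 genes (median -1.69), and Hist4h4, the 1 Hist4 gene, had a log2 fold change of -0.50 (adjusted p = 0.297). H2A and H2B genes often lie head to head and share the DNA between their starts. In all, 12 such pairs had starts within 500 bases of each other, and in 9 pairs, all of an H2A and an H2B gene, both were tested. The 9 pairs had starts 172 to 301 bases apart. Both log2 fold changes were negative in all 9, but any pairing would give this. All 12 tested H2A and all 16 tested H2B genes had a negative log2 fold change. Both genes fell in 3 pairs: Hist3h2a with Hist3h2bb-ps, Hist1h2ak with Hist1h2bn, and Hist1h2ac with Hist1h2bc. A single gene fell in 2 pairs and neither in 4. Paired or not, 5 of 12 tested H2A and 6 of 16 tested H2B genes fell, against 4.99% of all genes. Whether paired genes fell together more often than these rates give was not tested. The Hist3h2a promoter printed above spans the 172 bases between the starts of its pair. The fold changes of paired genes differed by 0.40 at the median and by up to 2.13 on the log2 scale. The largest of these differences rests on Hist3h2bb-ps, at 5 to 12 counts in KO, and differences within pairs were not tested.

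**Figure D4:**
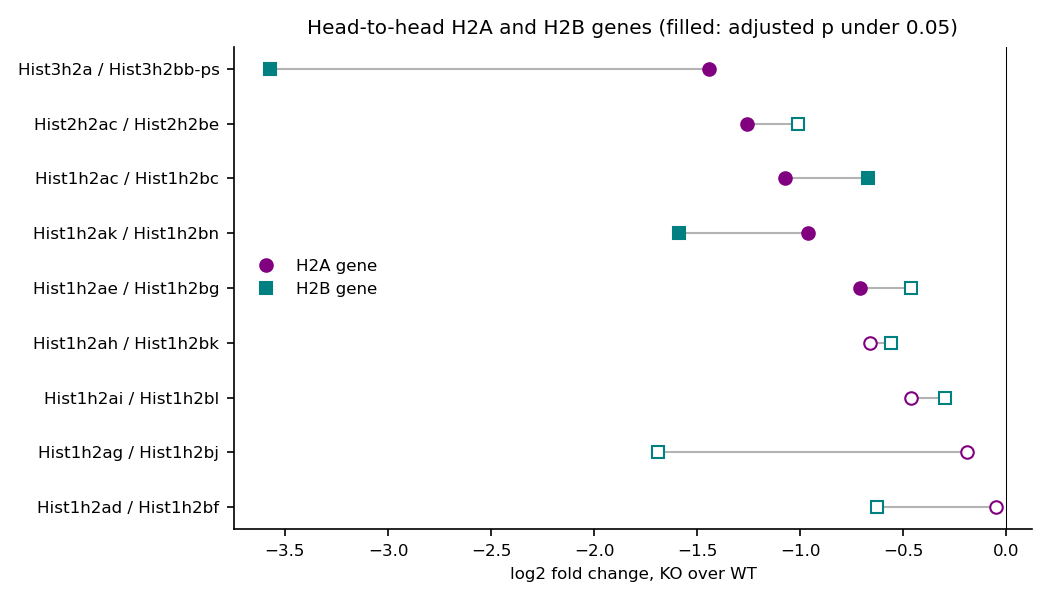
Log2 fold change (KO over WT) of the H2A gene (circles) and the H2B gene (squares) of each head-to-head pair, with filled symbols at an edgeR adjusted p under 0.05. All symbols lie left of 0, and the Hist3 pair is the farthest apart.

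Near-identical histone genes can share reads, and the sources used here do not give how such reads were counted. Of the 9 genes with 0 counts everywhere, a median of 93.1% of 50-base windows (63.5 to 100%) recur in another annotated transcript. These genes were Hist1h2ao, Hist1h2ap, Hist2h2aa1, Hist2h2aa2, Hist1h2bq, Hist2h3c1, Hist2h3c2, Hist1h4m and Hist1h4n. The median was 44.0% over the 54 tested genes, 31.7% over the 20 called lower and 51.7% over the 34 not called. Among the 7 tested genes with under 10% of such windows, 4 were lower, and the median log2 fold change was -0.52. All 4 were H1 genes, and the other 3, Hist2h2be, Hist2h4 and Hist4h4, were not called. Over all genes tested, 4.99% were lower. These shares also depend on the length of the annotated transcripts, at 7.07% of 2687 windows for Hist4h4 and 71.5% of 263 for Hist1h4k. The 4 genes with counts too low to test were Hist1h1t, Hist1h2aa, Hist1h2ba and Hist1h2an.

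Histone variant genes with other symbols, listed as replication-independent, were measured beside the replication-dependent genes. Whether each of their mRNAs is made outside S phase was not tested. Of 20 listed genes, 19 were in the table and 11 tested, with 2 lower and 1 higher in KO. Over all genes tested, 4.99% were lower and 6.41% higher. The median log2 fold change of the 11 was -0.18, against -0.02 over all genes. H3f3a, which encodes H3.3, had 499.7, 407 and 479 CPM in KO libraries, against 896, 819.7 and 708 CPM in WT libraries (log2 fold change -0.81, SE 0.11, edgeR adjusted p = 5.82e-05). H3f3b, encoding the same protein, was at 396 ± 34.6 CPM in KO and 410.2 ± 35.1 CPM in WT (log2 fold change -0.05, edgeR adjusted p = 0.832; the sign turned positive with length and GC offsets and with RPKM). H2afv, an H2A.Z gene, fell (58.7 ± 0.350 CPM in KO and 102 ± 4.56 CPM in WT; log2 fold change -0.80, SE 0.16, edgeR adjusted p = 0.00192), and H2afz, the other H2A.Z gene, was at 314 ± 23.3 CPM in KO and 382 ± 10.4 CPM in WT and did not pass (log2 fold change -0.28, adjusted p = 0.0837). H2afy, encoding macroH2A, rose (927 ± 31.2 CPM in KO and 739.5 ± 71.7 CPM in WT; log2 fold change 0.33, SE 0.10, edgeR adjusted p = 0.0333), a call lost without any library but WT replicate 2 (adjusted p up to 0.155). H2afx, the H2A variant phosphorylated at DNA breaks, and H1f0, the H1 variant of quiescent and differentiated cells, were not called, with log2 fold changes of -0.18 (adjusted p = 0.349) and 0.02 (adjusted p = 0.949).

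Genes for histone mRNA production and decay were read from a list of 41, with 40 in the table and 39 tested. By edgeR 0 were called lower, against 4.99% of all genes, and 6 were higher, against 6.41% of all genes (median log2 fold change 0.12). At an unadjusted p under 0.05, 1 was lower and 9 were higher. With no filter on low counts, and without WT replicate 3, 1 factor was called lower, and DESeq2 called 0 lower and 6 higher. Slbp was at 109 ± 14.6 CPM in KO and 116 ± 10.9 CPM in WT (log2 fold change -0.10, edgeR adjusted p = 0.749). Npat was at 83.9 ± 12.7 CPM in KO and 71.4 ± 2.89 CPM in WT (0.23, adjusted p = 0.430). Casp8ap2, encoding FLASH, was at 131 ± 22.8 CPM in KO and 107 ± 11.2 CPM in WT (0.30, adjusted p = 0.232). The U7 snRNP genes Lsm10 and Lsm11 had log2 fold changes of -0.47 (adjusted p = 0.686) and -0.16 (adjusted p = 0.787). None of these 5 passed the test, which does not show that they were equal. Upf1, a helicase of histone mRNA decay, rose (309.9 ± 11.8 CPM in KO and 213 ± 10.2 CPM in WT; log2 fold change 0.54, SE 0.11, edgeR adjusted p = 0.00216). So did Sympk, the scaffold of the 3′ end cleavage complex (209.9 ± 21.0 CPM in KO and 128 ± 29.1 CPM in WT; log2 fold change 0.71, SE 0.15, edgeR adjusted p = 0.00358). Fip1l1, a polyadenylation factor, and Exosc10, an exosome nuclease, also rose, with log2 fold changes of 0.49 (adjusted p = 0.0156) and 0.46 (adjusted p = 0.0335). The number of factors called was 2 to 5 with 1 library left out, and 0 with limma on the deposited RPKM values, where 2 were lower and 8 higher at an unadjusted p under 0.05. Fip1l1 lost its call without KO replicate 1 or 2 (up to 0.0944), and Exosc10 without KO replicate 2, KO replicate 3, WT replicate 1 or WT replicate 3 (up to 0.146).

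Of 30 tested histone chaperone and import genes (31 listed), 1 was lower and 6 higher in KO (median log2 fold change 0.16), against 4.99% and 6.41% of all genes. The calls numbered 2 without KO replicate 2, 3 without KO replicate 1 or WT replicate 1, 4 without WT replicate 2 and 3 with limma on the deposited RPKM values. Atrx, a chromatin remodeller that places H3.3, rose to 629 ± 73.8 CPM in KO, against 409 ± 20.9 CPM in WT (log2 fold change 0.62, SE 0.11, edgeR adjusted p = 0.000623), and so did Ssrp1, a subunit of FACT (777 ± 10.6 CPM in KO and 556 ± 53.3 CPM in WT; log2 fold change 0.48, SE 0.10, edgeR adjusted p = 0.00279). Ipo7, an importin for H1, was higher, with a log2 fold change of 0.38 (adjusted p = 0.0265), a call lost without KO replicate 1, KO replicate 2, WT replicate 1 or WT replicate 2 (up to 0.129). Rbbp4, a subunit of the chromatin assembly factor CAF-1 and of other complexes, fell with a log2 fold change of -0.42 (adjusted p = 0.0194), lost without KO replicate 2, KO replicate 3 or WT replicate 2 (up to 0.101) and with length and GC offsets (adjusted p = 0.0767).

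Of 51 S phase genes tested, 5 were lower (9.80%, against 4.99% of all genes) and 3 higher, where 6.41% of all genes were higher. The median log2 fold change was -0.10. Pcna, the sliding clamp of DNA polymerases, fell (251 ± 11.2 CPM in KO and 348 ± 8.42 CPM in WT; log2 fold change -0.47, SE 0.10, edgeR adjusted p = 0.00519), as did Rrm1, the large subunit of ribonucleotide reductase (log2 fold change -0.43, adjusted p = 0.0133), and Mcm4, Mcm6 and Mcm7 of the replicative helicase. Mcm10, which activates that helicase, rose (144 ± 22.1 CPM in KO and 70.2 ± 1.60 CPM in WT; log2 fold change 1.03, SE 0.15, edgeR adjusted p = 0.000112), as did Rfc1 of the clamp loader (log2 fold change 0.63, adjusted p = 0.0135) and Timeless, of the replication fork. Rrm1 lost its call without KO replicate 3 or WT replicate 2 (up to 0.0938) and with length and GC offsets (adjusted p = 0.0524), and Rfc1 without KO replicate 3, WT replicate 1 or WT replicate 3 (up to 0.0936). The S phase calls numbered 2 without KO replicate 3, 4 without KO replicate 2 and 5 without WT replicate 1, and 2 with limma on log2(RPKM + 1). Averaged over the list, the log2(CPM + 1) level of the 51 S phase genes was 6.55, 6.47 and 6.44 in KO libraries and 6.44, 6.63 and 6.53 in WT libraries, which overlap. The same average over the 54 histone genes was 5.35, 5.05 and 5.13 in KO and 5.62, 6.23 and 5.84 in WT, which do not. WT replicate 2 was the highest library in both. The difference between the lists was not tested.

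**Figure D5:**
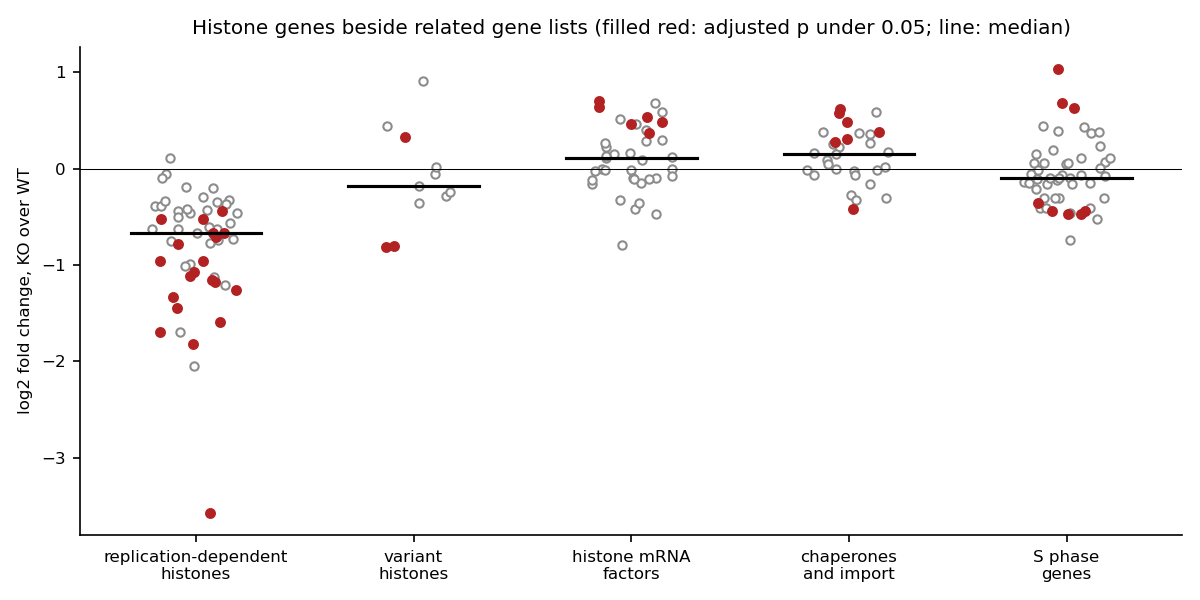
Log2 fold change (KO over WT) of each tested gene in the histone list, the variant histones, the mRNA factors, the chaperones and the S phase genes, with filled red points at an edgeR adjusted p under 0.05 and a line at the median. The histone median is -0.66, and the other medians run from -0.18 to 0.16.

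Markers of other cells in fetal liver were also read. For comparison with the marker counts that follow, 4.99% of all genes tested were lower in KO and 6.41% higher. Erythroid markers summed to 182 to 240.1 CPM in KO and 466 to 837 CPM in WT, with 4 of 6 tested lower in KO. The globin genes Hbb-b1 and Hba-a1 were at 0 counts in all libraries. Macrophage markers summed to 88.5 to 140.0 CPM in KO and 196 to 1035 CPM in WT (1 of 9 lower), endothelial markers to 145 to 194 CPM in KO and 217 to 1018 CPM in WT (1 of 7 lower) and hepatoblast markers to 49.5 to 92.5 CPM in KO and 90.4 to 133 CPM in WT (1 of 7 lower). Lymphoid markers summed to 0 to 1.13 CPM in KO and 1.10 to 5.68 CPM in WT, none of the 6 listed was tested, and Cd3e was at 0. The KO sums lay below the WT sums for erythroid, macrophage and endothelial markers. The share of Rn45s was also lower in KO than in WT. Their part in the lower histone levels was not tested.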

How the data were processed

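RNA was measured in 6 libraries, 3 RISP KO and 3 RISP WT, grouped by the labels. The authors deposited raw read counts per gene symbol and RPKM values (by name, per gene length and library size) with 1 column per library. Per the submitters' processing notes, TopHat and Cufflinks were used with mm9. Not given in the sources used here are their versions, the counter, the annotation, the strand setting and how multi-mapped reads were treated, so genes that overlap, antisense or not, cannot be told apart. The counts are of PCR reads without molecular identifiers. The fit estimated variation between libraries beyond counting error, and part of that variation may be technical.

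Deposited counts were fitted with edgeR 4.0.16 in R 4.3.3 (TMM, filterByExpr on the group with a minimum count of 10, robust quasi-likelihood test with a group term alone), on all 12204 genes kept. P-values were Benjamini-Hochberg adjusted over these genes, with a threshold of 0.05. CPM used TMM library sizes, and errors are SDs over 3 libraries. The SE of a log2 fold change is its size over the square root of F. The fit was first tested on simulated data with 200 genes changed. DESeq2 1.42.0, limma 3.58.1 (voom, and log2(RPKM + 1) or log2(RPKM + 0.1) of the deposited RPKM), other scalings and filters, covariates, offsets and leaving out each library were alternatives. A log2 difference of RPKM plus a pseudocount understates changes of low genes.

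The named genes were Uqcrfs1, every histone gene past the threshold, the 2 highest by CPM and the 1 with the largest fold change in each class, up to 4 called genes with the smallest p of each other list, and 10 preset genes. Others were named after their values were seen. The members, lists and markers were chosen with earlier results of these data known. Sequences came from RefSeq promoters (GRCm38.p6) and GENCODE M21 transcripts (GRCm38), while the counts were made on mm9.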

Additional observations from a re-analysis of the deposited data

How the results depend on the processing

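The number of histone genes lower in KO was 20, and 18 to 23 with RLE or upper-quartile scaling, with no or another filter on low counts, with DESeq2, limma-voom, the Y-linked level as covariate or length and GC offsets. Counts of the Y-linked genes Ddx3y, Eif2s3y, Kdm5d and Uty summed to 0, 2358 and 604 in KO libraries and 13, 836 and 1022 in WT libraries. With limma on log2(RPKM + 1) or log2(RPKM + 0.1) the number of histone genes lower was 11 and 11, and 11 to 19 with 1 library left out. Of all genes tested, 1.86 and 1.72% were lower with the 2 RPKM settings, and 2.1 to 4.33% with 1 library left out. The listed histone variants gave 2 to 3 calls with 1 library left out. Calls among the mRNA factors numbered 0 and 0 with the 2 RPKM settings, where limma gave 2 lower and 8 higher at an unadjusted p under 0.05, and 2 to 5 with 1 library left out. Calls among the chaperones numbered 3 and 3 with RPKM, 4 with the replicate block and 2 to 6 with 1 library left out. S phase calls numbered 2 with log2(RPKM + 1), 1 with log2(RPKM + 0.1) and 2 to 8 with 1 library left out. The log2 ratio of the H3 sums was -0.33 with the deposited RPKM, against -0.67 with CPM. H3f3b turned positive with log2(RPKM + 1), log2(RPKM + 0.1) and the offsets (0.0123, 0.0123 and 0.0154) and ranged from -0.119 to 0.0137 with 1 library left out, and H1f0 from -0.14 to 0.22. The cause was not tested. Of 476 alternatives over 28 named histone genes, 412 kept direction and side of the threshold, 60 lost the call, 4 gained one and 0 reversed.

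With the replicate block, 18 histone genes were lower, 17 of them among the 20. Same-numbered libraries correlated at -0.01 to 0.01 in their deviations from the group means, and not every library correlated best with its own number, so the numbers were not taken to pair libraries.

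Of the 67 histone genes, 13 could not be tested. Of these, 4 had too few counts at this depth and 9 had 0 counts everywhere, which does not show that they are silent: the part of depth and of shared sequence in these zeros was not tested.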

Other observations

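Hist1h4m, an H4 gene, had 0 counts in every library of the deposited count table, yet its deposited RPKM was 47.4 ± 3.84 in KO and 57.0 ± 9.60 in WT (SD, n = 3 each). The 2 deposited tables thus differ for this gene, whose transcript shares sequence with other H4 genes. It was not tested, but its RPKM is part of the H4 sums on the RPKM scale. Hist1h2ao and Hist1h2ap also had 0 counts everywhere, with RPKM values of up to 0.160 and 0.280. Hist1h3c had 61.4, 45.9 and 36.4 CPM in KO libraries but 103.4, 100.4 and 92.3 RPKM. The RPKM values are thus not these counts scaled by 1 fixed length per gene.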
